A study of Mus musculus with 8 samples.

Results

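Ebf1, Ebf2 and Ebf3 are the 3 genes described here, out of 38924 genes in each count table. They were chosen by name for their level in medial-type dopamine libraries, after earlier results of these data were known. Levels in medial-type against lateral-type and serotonin libraries are therefore given as a description, with no test of the members. The libraries hold messenger RNA pulled down with tagged ribosomes from mouse embryos of bacTRAP lines, where regulatory DNA of a transporter gene drives the tag in the neurons of interest. The medial-type dopamine libraries were 2 labelled datM and 1 labelled Medial. The lateral-type dopamine libraries were 2 labelled datL and 1 labelled Lateral. The serotonin libraries, from hindbrain, were 2.

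All groups carry the tagged ribosome. According to the design text, dopamine neurons were reached through Slc6a3, the dopamine transporter gene, and serotonin neurons through Slc6a4, the serotonin transporter gene, while the description of every library, serotonin included, names the Slc6a3 line. One protocol text serves each library: embryos were dissected on day 15, and tissue called day 18 had been dissected on day 15 and then kept 3 days in vitro. Only the file headers of Medial and Lateral carry the mark E18. The letters L and M are not spelled out in the labels, and reading them as lateral and medial follows the grouping rule used here. The labels do not say whether replicates came from separate animals, and the p-values below reflect library-to-library variation that could be purely technical.

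Early B-cell factors are transcription factors with a zinc-containing DNA-binding domain and a helix-loop-helix dimerization domain, and as dimers they bind a palindrome of the half-sites TCCC and GGGA with 2 bases between them. They are named for their role in B lymphocytes. In the nervous system they are made in young neurons that leave the ventricular zone, downstream of proneural factors, and take part in neuronal differentiation and migration. In the mouse ventral midbrain, Ebf1 is known to act in the migration of dopamine neurons to the substantia nigra. Ebf2 is known in mouse for the migration of gonadotropin-releasing hormone neurons and for Purkinje cell development. EBF3 is known in human for a neurodevelopmental disorder.

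Since the family members are close relatives, the transcripts were compared first to see whether reads could be assigned to 1 gene. The stretch shown runs from the first to the last cysteine codon of the zinc-binding knuckle in the coding sequence of each GENCODE M21 transcript, with capitals at the 10 of 30 bases that are not the same in all 4 genes.
Ebf1: tgcagCcgCtgTtgtgaCAAGaaAagCtgT
Ebf2: tgcagTcgAtgCtgtgaGAAGaaGagCtgC
Ebf3: tgcagCcgGtgCtgtgaCAAGaaGagTtgT
Ebf4: tgcagCcgGtgCtgtgaCCGCaaGagCtgT
Each stretch is split by an intron. In GRCm38 they span chr11:44632820-44643425 (+) for Ebf1, chr14:67239487-67247035 (+) for Ebf2, chr7:137307529-137309303 (-) for Ebf3 and chr2:130308622-130309697 (+) for Ebf4. Coding sequences were 79.6% identical between Ebf1 and Ebf3, 75.6% between Ebf2 and Ebf3 and 73.5% between Ebf1 and Ebf2. The longest run of bases shared by any pair of the 3 members was 24, and 0 windows of 100 bases, the read length, were shared between any of the 4 genes. Reads of 1 member therefore differed from every other member in sequence.

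In mm10, the build of the tables, Ebf1 (ENSMUSG00000057098.8) lies on chromosome 11 from 44617317 to 45008091, with 9756 exonic bases. Ebf2 (ENSMUSG00000022053.7) lies on chromosome 14 from 67233292 to 67430918, with 6928 exonic bases. Ebf3 (ENSMUSG00000010476.7) lies on chromosome 7 from 137193673 to 137314445 on the minus strand, with 5021 exonic bases. Counting was done without strand. Gene models sharing exon bases with a member were 1 for Ebf1 (4.64% of its exonic bases) and 1 for Ebf2 (6.12%). Both models had 0 counts in every library. Since reads that overlap several genes may be lost, those counts cannot show whether reads of the members were affected.

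Total counts per library ran from 22417739 to 33216710, and 11708 to 15656 genes had at least 1 count. Per the file headers, the datM and datL libraries came from an October run, and Medial, Lateral and serotonin from lane 8 of another run. Slc6a3 stood at 31.9 to 176 CPM in medial-type, 129 to 739 CPM in lateral-type and 0.171 to 0.679 CPM in serotonin libraries. Pitx3, a defining transcription factor of midbrain dopamine neurons, was at or near 0 in most dopamine libraries and reached 4.01 CPM in Medial. The serotonin marker Slc6a4 was at 0 in the datM and datL libraries and stood at 3.93 CPM in Medial and 5.27 CPM in Lateral. Tph2, Gata2 and Fev, also listed as serotonin markers, stood at 41.5, 24.2 and 0.312 CPM in Medial. In Lateral they stood at 16.8, 13.7 and 0.0903 CPM. Gata3, the last of that list, stood at 36.95, 11.8 and 55.9 CPM in datM replicate 1, datM replicate 2 and Medial. It stood at 422, 68.8 and 210 CPM in datL replicate 1, datL replicate 2 and Lateral.

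Ebf2 and Ebf3 stood higher in each medial-type library than in each lateral-type library, and Ebf1 did not. CPM is a gene's counts per 1000000 counts of its library. Ebf2 stood at 390, 462 and 111 CPM in datM replicate 1, datM replicate 2 and Medial, against 62.4, 67.9 and 28.8 CPM in datL replicate 1, datL replicate 2 and Lateral. The groups did not overlap, and both datM libraries were far above Medial. In the serotonin libraries Ebf2 stood at 15.5 and 34.4 CPM, so Lateral lay within the serotonin range. The mean of Ebf2 was 321 ± 185 CPM in medial-type (SD, n = 3) and 53.0 ± 21.2 CPM in lateral-type libraries (SD, n = 3), a ratio of 6.06. In RNA pulled from mixed tissue, fewer cells that express a gene and less RNA per cell cannot be told apart.

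Ebf3 stood at 381, 96.1 and 167 CPM in datM replicate 1, datM replicate 2 and Medial, against 73.4, 31.2 and 48.2 CPM in datL replicate 1, datL replicate 2 and Lateral. The groups did not overlap here either, but the lowest medial-type library was only 1.31 times the highest lateral-type library. For Ebf2 the same ratio was 1.64. Serotonin libraries held 11.9 and 15.6 CPM of Ebf3, less than any dopamine library. The mean of Ebf3 was 215 ± 148 CPM in medial-type (SD, n = 3) and 50.9 ± 21.2 CPM in lateral-type libraries (SD, n = 3), a ratio of 4.21.

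Ebf1 went against the naming of the set by medial libraries. It stood at 48.3, 2.79 and 20.3 CPM in datM replicate 1, datM replicate 2 and Medial, against 0.0441, 27.4 and 29.3 CPM in datL replicate 1, datL replicate 2 and Lateral. The groups overlapped, and Medial lay below Lateral. The lowest value, in datL replicate 1, was a single count, for which the 95% exact Poisson interval is 0.00112 to 0.246 CPM. Such intervals cover counting error only, since reads copied by PCR are not independent molecules. Serotonin libraries stood at 17.3 and 19.5 CPM, inside the range of the dopamine libraries. On the log2(CPM + 0.5) scale, datM replicate 1 minus replicate 2 was 3.89, where the median gene differed by 1.25 in absolute size. In datL the same difference was -5.68, where the median gene differed by 1.44.

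**Figure D1:**
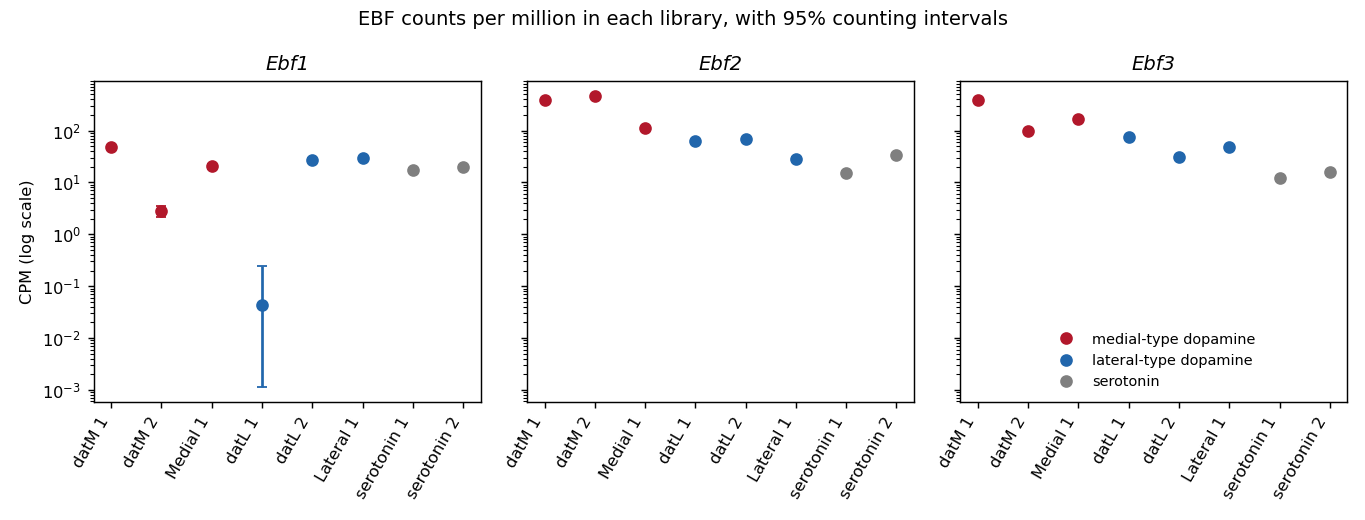
CPM (log scale) of Ebf1, Ebf2 and Ebf3 in each library, with 1 point per library and bars for 95% exact Poisson counting intervals, most of which are smaller than the point. The 3 medial-type points lie above the 3 lateral-type points for Ebf2 and Ebf3, while for Ebf1 datL replicate 1 holds a single count and the groups overlap.

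Over all 12730 genes with a mean of at least 1 CPM, 4.12% had all 3 medial-type above all 3 lateral-type libraries and 3.68% had them all below. Of the 3 members, 2 had all medial-type libraries above, which the choice of members fixes. All 3 medial-type libraries lay above both serotonin libraries for Ebf2 and Ebf3, where 11.4% of genes did. Of the members, Ebf3 alone had each of the 6 dopamine libraries above the serotonin pair, a pattern found at 3.2% of genes.

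In a fit with terms for neuron type and run, the log2 fold change of medial-type over lateral-type libraries was 2.36 (SE 0.50) for Ebf2, 1.97 (SE 0.67) for Ebf3 and 0.35 (SE 1.87) for Ebf1. The median over the 13806 genes fitted was -0.10. Of those genes, 13.1% had a larger log2 fold change than Ebf2 and 14.6% a larger one than Ebf3, so folds of this size were common between these libraries. By edgeR, 0 genes passed the adjusted threshold of 0.05 (0%), with 785 at an unadjusted p under 0.05. DESeq2 called 1409 genes and limma-voom 0. Without datM replicate 1 the value of Ebf3 was 1.14. For Ebf1 it was -1.62 without datM replicate 1, -0.38 without datL replicate 1 and 4.05 without datL replicate 2.

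**Figure D2:**
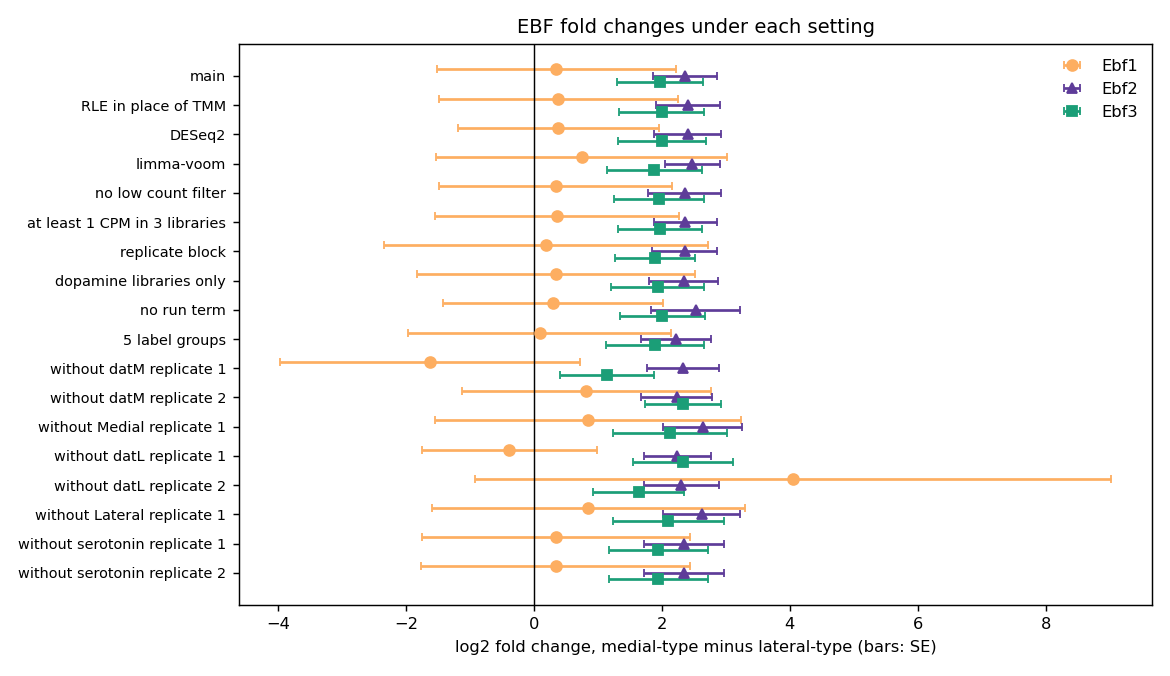
Log2 fold change of each member, medial-type minus lateral-type, in the fit reported and under each alternative setting, with bars for the standard error. Ebf2 stays between 2.22 and 2.64 and Ebf3 between 1.14 and 2.33, while Ebf1 runs from -1.62 to 4.05.

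Against serotonin, with the run term, the log2 fold change of medial-type libraries was 3.69 (SE 0.93) for Ebf3, 2.38 (SE 0.66) for Ebf2 and 0.67 (SE 2.54) for Ebf1. The run term rests on the dopamine libraries alone, where lane 8 and the E18 mark go together. The serotonin libraries are of lane 8 without that mark, so run and mark cannot be told apart in these values. By edgeR 0 genes passed (0%), with 633 at an unadjusted p under 0.05, while DESeq2 called 346 and limma-voom 0. Without datL replicate 1, edgeR called 1. The value of Ebf2 was 3.83 without the run term and 3.17 with 5 label groups. Leaving out each library gave 1.89 to 3.02 for it, with the highest without serotonin replicate 2 and the lowest without serotonin replicate 1. For Ebf1 the value was -0.38 without datM replicate 1 and 3.84 without datL replicate 2. Within lane 8, Medial held 4.46 times the mean of the serotonin libraries for Ebf2, 12.1 times for Ebf3 and 1.10 times for Ebf1. There Lateral held 1.16 times that mean for Ebf2, 3.51 times for Ebf3 and 1.59 times for Ebf1.

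Medial-type and lateral-type values within each run are part of what chose the members and are given as a description. In lane 8, with 1 library each and no replicate check, the ratio of Medial to Lateral was 3.86 for Ebf2, 3.46 for Ebf3 and 0.693 for Ebf1. In the October run the ratio of the datM mean to the datL mean was 6.55 for Ebf2, 4.56 for Ebf3 and 1.86 for Ebf1. Over all genes with a mean of at least 1 CPM, 22.2% had Medial at least 2 times Lateral on the CPM + 0.5 scale. At 12.3% of genes, as at Ebf2 and Ebf3, Medial was above Lateral and each datM replicate above the datL replicate of the same number. A test of whether the difference itself depended on the run, which the choice of members did not use, called 0 genes (0%) by edgeR, with 409 at an unadjusted p under 0.05. DESeq2 called 656 and limma-voom 0, and without either serotonin library edgeR called 1. For Ebf2 the interaction was -0.83 (SE 1.02, edgeR adjusted p = 1.0), and the alternatives gave an adjusted p between 0.735 and 1. For Ebf3 it was -0.48 (SE 1.47) and for Ebf1 -1.52 (SE 4.15), with the same adjusted p.

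Levels were also compared between runs over the 6 dopamine libraries, a contrast the choice did not use. Ebf2 averaged 70.1 ± 58.3 CPM in Medial and Lateral (SD, n = 2) and 246 ± 211 CPM in the 4 October libraries (SD, n = 4). In the fit of all 8 libraries, its log2 fold change of lane 8 over October was -1.74 (SE 0.55, edgeR adjusted p = 0.511). The alternatives gave between 0.0244, in DESeq2, and 1 for that adjusted p. The value was -0.52 (SE 0.71) for Ebf3 and 0.23 (SE 1.97) for Ebf1, with edgeR adjusted p = 0.905 and adjusted p = 0.991. In edgeR 1 gene of all tested passed (0.00724%), Tph2, whose enzyme begins neuronal serotonin synthesis, while DESeq2 called 899 and limma-voom 118. Tph2 was named after its value was seen. With dopamine libraries only, 0 genes passed in edgeR and the log2 fold change of Ebf2 was -1.71. The count was 0 without datM replicate 1, Medial or Lateral, and 2 without datL replicate 1 or either serotonin library. The run and the E18 mark cannot be told apart in this contrast, nor in the interaction above.

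By label group, the order of Ebf2 was datM (426 ± 50.9 CPM, SD, n = 2), Medial (111 CPM), datL (65.1 ± 3.96 CPM, SD, n = 2), Lateral (28.8 CPM) and serotonin (24.9 ± 13.4 CPM, SD, n = 2). Neighbours in that order were apart by more than their ranges except Lateral and serotonin. The order of Ebf3 was datM (238 ± 201 CPM, SD, n = 2), Medial (167 CPM), datL (52.3 ± 29.9 CPM, SD, n = 2), Lateral (48.2 CPM) and serotonin (13.8 ± 2.56 CPM, SD, n = 2). Medial lay within the datM range and Lateral within the datL range. For Ebf1 the 2 serotonin libraries, Medial and Lateral all lay within the range of the datM pair.

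Between genes, levels were compared per length, as counts per kilobase of exon and per 1000000 counts of the library (RPKM). The summed level of the 3 members was 137, 86.2 and 51.4 RPKM in datM replicate 1, datM replicate 2 and Medial, against 23.6, 18.8 and 16.8 RPKM in datL replicate 1, datL replicate 2 and Lateral. In serotonin libraries it was 6.39 and 10.1 RPKM. Ebf1 made up 0.332% to 4.05% of that sum in medial-type, 0.0191% to 17.9% in lateral-type and 19.9% to 27.8% in serotonin libraries. Ebf3 made up the largest share in datM replicate 1 (55.3%), Medial (64.7%), datL replicate 1 (61.9%) and Lateral (57.3%). Ebf2 led in datM replicate 2 (77.5%) and datL replicate 2 (52.1%). In the serotonin libraries Ebf3 led in replicate 1 (37.2%) and Ebf2 in replicate 2 (49.4%). The leading member thus differed within datM, within datL and within serotonin.

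**Figure D3:**
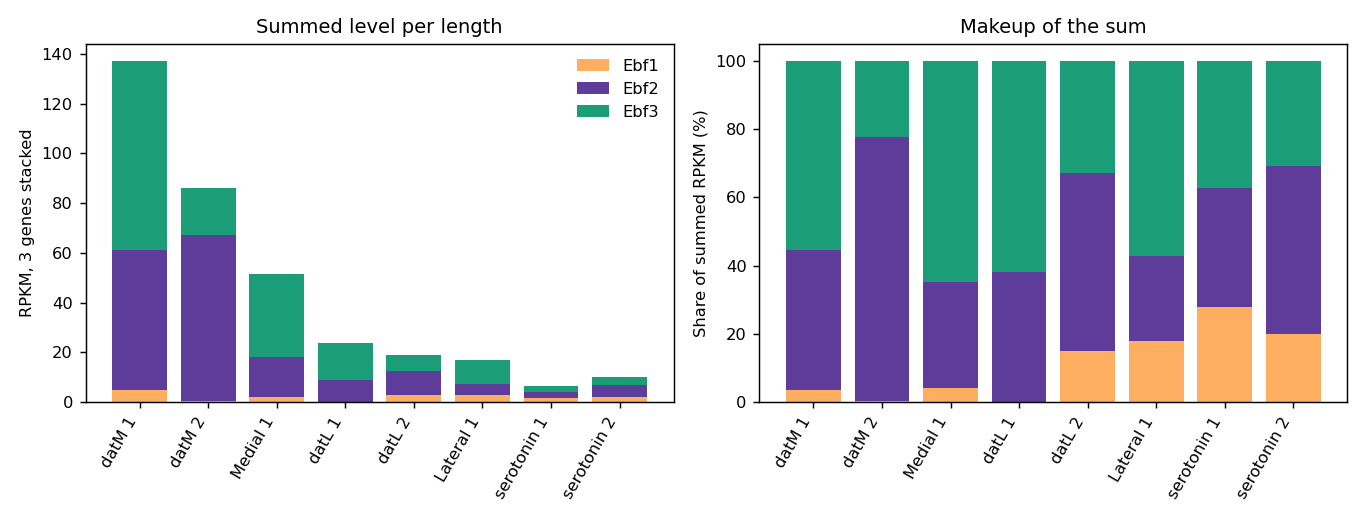
Left, level per length (RPKM) of the 3 members stacked in each library. Right, the same as a share of their sum in percent. The sum is highest in datM replicate 1 at 137 RPKM, and Ebf1 takes its largest shares, 19.9% and 27.8%, in serotonin libraries.

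The levels were then set against genes of the same libraries. Divided by the mean of 9 pan-neuronal genes, Ebf2 and Ebf3 still separated the groups, with ratios of medial-type to lateral-type means of 6.15 and 4.21. Divided by the mean of 6 dopamine neuron markers, Ebf2 was 1.35, 2.37 and 0.476 in datM replicate 1, datM replicate 2 and Medial, against 1.14, 0.491 and 0.0868 in datL replicate 1, datL replicate 2 and Lateral. The groups overlapped on that scale, and the ratio of means was 2.45. For Ebf3 the values were 1.32, 0.492 and 0.714 in medial-type and 1.34, 0.225 and 0.145 in lateral-type libraries, with a ratio of 1.48. The summed dopamine markers were 1172 to 1734 CPM in medial-type and 329 to 1994 CPM in lateral-type libraries, with the lowest value in datL replicate 1, where Slc18a2, the vesicular monoamine transporter, was at 0. How much that library's low marker level moves the scaled values was not tested separately.

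**Figure D4:**
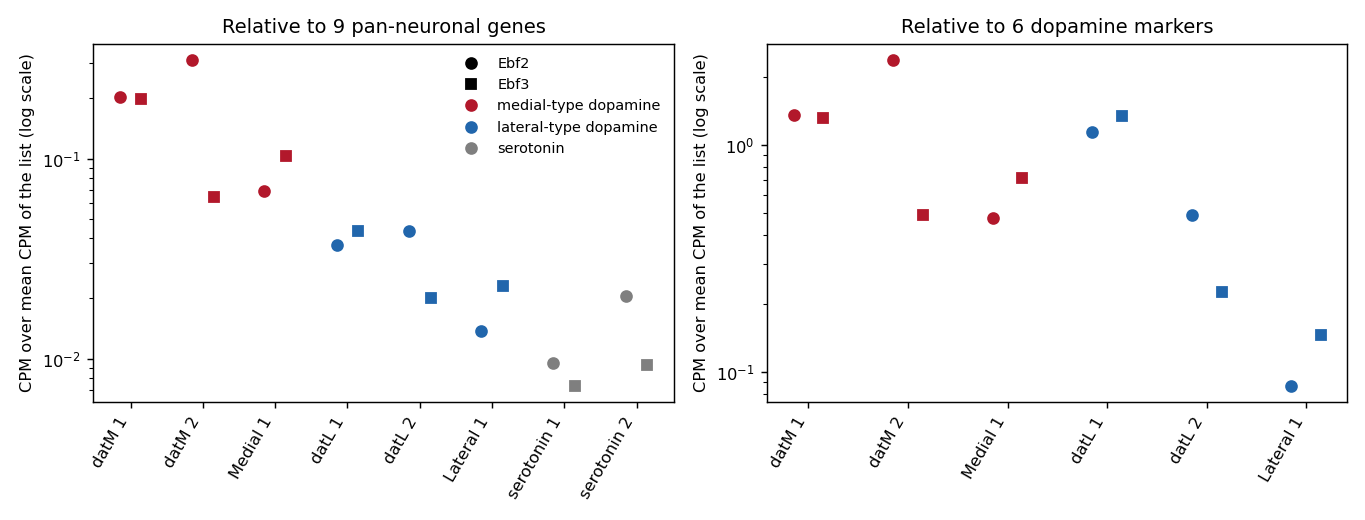
Ebf2 (circles) and Ebf3 (squares) in each library on a log scale, as CPM over the mean CPM of 9 pan-neuronal genes (left) and of 6 dopamine markers (right, dopamine libraries only). Medial-type points lie above lateral-type points on the left. On the right the types overlap, with datL replicate 1 at 1.14 for Ebf2 and 1.34 for Ebf3, the latter above each medial-type Ebf3 point. The Ebf2 point of datL replicate 2, at 0.491, also lies above that of Medial, at 0.476.

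Ebf4, the remaining family gene, was low in dopamine libraries. It stood at 1.87, 0.0416 and 0.848 CPM in medial-type and 0.661, 0 and 1.11 CPM in lateral-type libraries, against 7.53 and 9.02 CPM in serotonin libraries. Each of the 6 dopamine libraries was below the serotonin pair, as was so at 7.67% of genes. The log2 fold change of medial-type over serotonin libraries was -2.53 (SE 3.35, edgeR adjusted p = 0.963).

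Cofactors of the family were measured in all libraries. Of 9 genes in a list of Ebf4 and cofactors, 8 were tested between medial-type and lateral-type libraries, 0 passed in edgeR and 5 were positive, with a median log2 fold change of 0.84 beside -0.10 over all genes. Zfp521, a zinc finger protein that binds and inhibits EBF1, stood at 146, 200 and 104 CPM in medial-type and 28.7, 116 and 53.7 CPM in lateral-type libraries. Its log2 fold change was 1.07 (SE 0.63, edgeR adjusted p = 0.796). Chd4, a chromatin remodeller, stood at 330, 165 and 237 CPM in medial-type and 78.7, 124 and 177 CPM in lateral-type libraries. Both overlapped between the groups. Cnot3 did not, at 17.5, 11.8 and 11.8 CPM in medial-type and 8.11, 1.53 and 10.3 CPM in lateral-type libraries. It was the 1 such gene of 7 listed with a mean of at least 1 CPM, where 4.12% of all genes had all medial-type above all lateral-type libraries. Zfp423, another zinc finger partner, ran from 3.35 to 102 CPM in medial-type and from 12.1 to 88.6 CPM in lateral-type libraries.

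Proneural and neuronal basic helix-loop-helix factors, some of which act upstream of EBF genes, summed to 244 to 727 CPM in medial-type, 39.5 to 226 CPM in lateral-type and 125 to 126 CPM in serotonin libraries. Of 12 listed genes 8 were tested, 0 passed in edgeR and 7 were positive, with a median log2 fold change of 2.45. Neurod1, a differentiation factor, stood at 104, 464 and 110 CPM in medial-type and 69.1, 194 and 6.71 CPM in lateral-type libraries. Nhlh2 stood at 84.0, 59.7 and 15.8 CPM in medial-type and 7.98, 0.649 and 6.77 CPM in lateral-type libraries, with no overlap. Hes6 did not overlap either, at 23.0, 20.5 and 45.5 CPM in medial-type and 18.8, 2.94 and 14.5 CPM in lateral-type libraries. Of 7 listed genes with a mean of at least 1 CPM, these 2 had all medial-type libraries above and 0 had them all below. Over all genes, 4.12% had them all above. Neurog1, Neurog3 and Atoh1, which mark progenitors of other lineages, were at 0 in all 6 dopamine libraries.

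The 10 midbrain dopamine transcription factors summed to 729 to 1126 CPM in medial-type, 271 to 393 CPM in lateral-type and 120 to 144 CPM in serotonin libraries. All 10 were tested, 0 passed in edgeR, 9 were positive and Sox6 was negative, and the median log2 fold change was 1.43. Nr4a2, which is needed for the dopamine phenotype, stood at 463, 296 and 341 CPM in medial-type and 56.7, 99.2 and 115 CPM in lateral-type libraries. Its log2 fold change was 1.96 with an SE of 0.50 (edgeR adjusted p = 0.796). Lmx1a, which specifies floor plate and dopamine progenitors, stood at 343, 185 and 145 CPM in medial-type and 28.3, 45.1 and 110 CPM in lateral-type libraries. Nr4a2, Lmx1a and En2, 3 of the 10, had all medial-type above all lateral-type libraries, where 4.12% of all genes did. En1, an engrailed factor of the midbrain-hindbrain region, stood at 100.4, 71.7 and 104 CPM in medial-type and 59.1, 27.1 and 74.4 CPM in lateral-type libraries, against 93.5 and 88.6 CPM in serotonin libraries.

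Markers of other cells that the pulldown could hold are given next, and their part in the values of the members was not tested. The 10 radial glia and progenitor genes summed to 2882 to 4374 CPM in medial-type, 1539 to 3575 CPM in lateral-type and 878 to 1086 CPM in serotonin libraries, and all 10 were detected in every library. The sums overlapped between medial-type and lateral-type libraries. All 10 were tested, 0 passed in edgeR, 7 were positive and 3 negative, and the median log2 fold change was 1.34. Nes, Vim, Slc1a3 and Top2a, 4 of the 10, had all medial-type above all lateral-type libraries, where 4.12% of all genes did. The negative ones were Pax6 (log2 fold change -3.13), Hes5 (-1.99) and Fabp7 (-0.10). Nes stood at 269, 315 and 45.1 CPM in medial-type and 20.1, 26.1 and 30.9 CPM in lateral-type libraries. The 10 mural cell genes, of interest since Ebf1 is also made in vascular mural cells, summed to 128 to 304 CPM in medial-type, 9.21 to 117 CPM in lateral-type and 42.3 to 59.4 CPM in serotonin libraries. Of 9 tested, 9 were positive with a median log2 fold change of 2.73 and 0 passed in edgeR. Rgs5, a pericyte regulator of G protein signalling, stood at 55.1, 43.2 and 64.7 CPM in medial-type and 8.46, 6.49 and 11.6 CPM in lateral-type libraries, with no overlap. It was the 1 such gene of 9 listed mural genes with a mean of at least 1 CPM, beside 4.12% of all genes. Cspg4, the NG2 proteoglycan of pericytes and oligodendrocyte precursors, stood at 23.7, 0.0416 and 145 CPM in medial-type and 0, 0 and 58.9 CPM in lateral-type libraries. At 0 were 2 to 4 of the 10 in medial-type and 0 to 7 in lateral-type libraries, and Abcc9 and Anpep were at 0 in all datM and datL libraries.

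Meningeal fibroblast genes summed to 7.34 to 38.2 CPM in medial-type, 0.132 to 11.4 CPM in lateral-type and 0.713 to 48.9 CPM in serotonin libraries, and Dcn and Foxc2 were at 0 in all 6 dopamine libraries. Col3a1, a fibrillar collagen, stood at 6.61, 0 and 37.1 CPM in medial-type and 0, 0 and 0.391 CPM in lateral-type libraries (unadjusted p = 0.0392 and adjusted p = 0.796 in edgeR). Foxc1, a meningeal transcription factor, stood at 0.697, 11.8 and 0 CPM in medial-type and 0, 0 and 4.94 CPM in lateral-type libraries. Foxd1 went the other way, at 0, 0 and 0 CPM in medial-type and 0.0441, 1.45 and 1.445 CPM in lateral-type libraries (unadjusted p = 0.0190 and adjusted p = 0.796 in edgeR). Of 5 meningeal genes tested, 3 were positive and 2, Foxd1 and Col1a2, were negative, and 0 passed in edgeR. Cajal-Retzius genes summed to 436 to 549 CPM in medial-type and 356 to 568 CPM in lateral-type libraries. Most of each sum was Calb2. Of 5 tested, 2 were positive and 3 negative, and 0 passed in edgeR. The defining Cajal-Retzius factor Trp73 was detected in Medial alone among the dopamine libraries. Lhx1 lay lower in each medial-type library, at 30.9, 21.9 and 4.5 CPM, against 56.8, 39.7 and 40.9 CPM in lateral-type libraries. That pattern was found at 3.68% of all genes with a mean of at least 1 CPM. Genes of glutamatergic, red nucleus and subthalamic neurons summed to 267 to 493 CPM in medial-type, 174 to 285 CPM in lateral-type and 37.8 to 55.3 CPM in serotonin libraries. Of 6 tested, 3 were positive and 3 negative, and 0 passed in edgeR. Slc17a6 in that list stood at 114, 285 and 320 CPM in medial-type and 6.79, 195 and 76.2 CPM in lateral-type libraries, which overlapped. Lhx9 in the same list lay lower in each medial-type library, at 0.771, 0.0416 and 0.758 CPM, against 8.50, 46.0 and 24.6 CPM in lateral-type libraries. This was so at 3.68% of all genes with a mean of at least 1 CPM. Cranial motor neuron genes summed to 4.77 to 33.1 CPM in medial-type and 26.0 to 125 CPM in lateral-type libraries. Most of the lateral-type sum was Isl1, at 69.2, 125 and 24.0 CPM, against 0.0367, 26.25 and 0.0446 CPM in medial-type libraries. Chat stood at 33.05 CPM in Medial and at 0 in the datM and lateral-type libraries. Phox2a and Mnx1 were at 0 in all 6 dopamine libraries. Pan-neuronal genes summed to 13420 to 17290 CPM in medial-type and 14010 to 18810 CPM in lateral-type libraries.

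**Figure D5:**
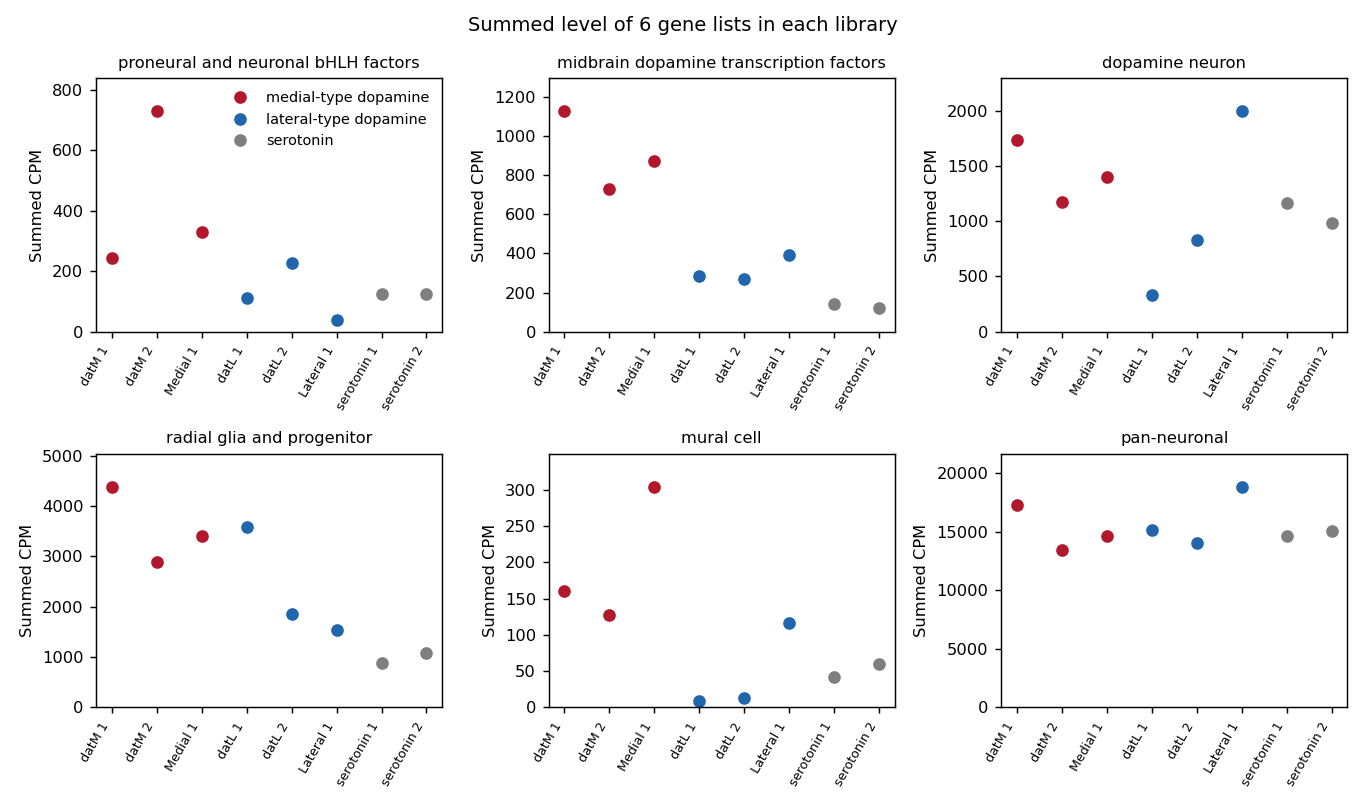
Summed CPM of 6 gene lists in each library, from 0 on a linear scale. Proneural factors, midbrain dopamine transcription factors and mural genes are higher in each medial-type than in each lateral-type library, radial glia and dopamine markers overlap between the types, and pan-neuronal genes are nearly level.

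Likeness of a gene to the members was measured as the root mean square difference between log2(CPM + 0.5) profiles over the 8 libraries, each centred on its mean. Those libraries share runs and depths. Among 10119 named genes with a mean of at least 5 CPM, the 5 closest to the mean profile of the 3 members were Zfp608 (0.34), Nbeal1 (0.42), Flrt2 (0.46), Rgs12 (0.47) and Nol10 (0.49). Zfp608, a zinc finger gene, stood at 135, 56.8 and 111 CPM in medial-type, 19.2, 55.2 and 36.9 CPM in lateral-type and 17.0 and 25.0 CPM in serotonin libraries. The mean profile leans on Ebf1, whose values vary most.

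Among the members, Ebf2 and Ebf3 differed by 0.95 on this measure, and 42 candidate genes were closer to Ebf2 than Ebf3 was. Ebf1 differed from Ebf2 by 2.70 and from Ebf3 by 2.56. The gene closest to each member was taken after the values were seen. It was Nes for Ebf2 (0.58), Rsf1, a chromatin factor, for Ebf3 (0.53) and Slc11a2, a metal ion transporter, for Ebf1 (0.36). Slc11a2 was low in the same libraries as Ebf1, at 3.12 CPM in datM replicate 2 and 0.0881 CPM in datL replicate 1, against 20.2 CPM in datL replicate 2.

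The EBF palindrome, TCCC and GGGA with any 2 bases between them, reads the same on both strands and was searched for in RefSeq promoters of GRCm38.p6, each of 300 bases. It was present in 0.904% of 32851 promoters. Of the members Ebf1 has 2 promoters in that table and Ebf3 has 1, and 0 of them held it. It was in 0 of 11 promoters of the Ebf4 and cofactor list and in 0 of 5 promoters of the closest genes. Ebf2, Zfp521 and Zfp608 had no promoter in that table and were not searched. With so few promoters and a share of 0.904%, finding none cannot tell these genes from others.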

How the data were processed

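Each library is 1 table of raw read counts per gene, as deposited by the authors. Per the submitters' processing notes, the aligner was STAR and the build mm10. Per the file headers, featureCounts 1.4.3-p1 then assigned reads to GENCODE vM2 genes without strand. Reads that overlap several genes may be lost. Symbols were attached by Ensembl identifier to 37607 of 38924 genes. The members and gene lists were chosen with earlier results of these data known.

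CPM was computed by library total. Counts were tested in edgeR 4.0.16 (R 4.3.3) by the two-sided quasi-likelihood test, with TMM factors, the default expression filter by type, terms for type (medial, lateral, serotonin) and run, and Benjamini-Hochberg adjustment over all genes at 0.05. The interaction came from a fit of 5 label groups. Of these, only the medial-type minus lateral-type contrast of the fit with type and run was tried on simulated data. SE is the fold change over the root of the F statistic.

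Alternatives were RLE factors, DESeq2 1.42.0, voom of limma 3.58.1, other filters, models and scalings, a replicate block, and each library left out. Named were the members, Ebf4, up to 4 called or 2 lowest-p genes of each of 15 lists (mean CPM 1 or more), and the 5 genes most like the members. Not every gene under this rule is printed, and other names were added after values were seen.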

Additional observations from a re-analysis of the deposited data

How the results depend on the processing

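Ebf2 and Ebf3 kept a positive medial-type minus lateral-type value under all 17 alternatives. Ebf2 was 2.53 without a run term and 2.22 with 5 label groups, and leaving out each library gave 2.23 to 2.64 for Ebf2, 1.14 to 2.33 for Ebf3 and -1.62 to 4.05 for Ebf1. Ebf1 turned negative without datM replicate 1 (-1.62) and without datL replicate 1 (-0.38), and its ratio over dopamine markers was -0.10 on the log2 scale. Against serotonin, Ebf1 was -0.38 without datM replicate 1 and at most 3.84 without another library. Between runs, Ebf1 was -0.026 without datM replicate 2, -0.32 without datL replicate 1 and -0.56 without Lateral, and Ebf3 was 0.11 without datM replicate 1. Leaving out a library gave up to 3.73 for Ebf1 and down to -0.77 for Ebf3. The interaction was 1.68 for Ebf1 and 0.86 for Ebf3 without datM replicate 1, and 0.0075 for Ebf3 without datL replicate 2, and leaving out a library gave down to -9.67 for Ebf1 and -1.26 for Ebf3. The cause was not tested.

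Counts of genes past the threshold depended on the tool. DESeq2 called 1409 genes for medial-type minus lateral-type, 346 against serotonin, 899 between runs and 656 for the interaction, and limma-voom called 118 between runs. For medial-type minus lateral-type, no run term gave 1 and leaving out each library gave 0. Against serotonin, no expression filter gave 1 and leaving out a library gave 0 to 1. Between runs, no filter gave 2, dopamine libraries only and 5 label groups gave 0, and leaving out a library gave 0 to 2. For the interaction, leaving out a library gave 0 to 1. It could not be fitted without Medial or Lateral.

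The labels do not say whether same-numbered libraries of datM and datL were prepared together. Deviations from group means correlated at 0.101 between datM and datL over 13806 genes. With serotonin they correlated at -0.004 for datM and 0.015 for datL. With 2 libraries in each group, these values cannot show whether libraries were paired. With the replicate block the fold changes were 0.19 for Ebf1, 2.36 for Ebf2 and 1.89 for Ebf3, and the counts were 0, 0, 1 and 0. Of the 5 genes most like the members, 3 were shared with a pseudocount of 0.1, 4 with 2 and 5 with a mean of at least 1 CPM.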

Other observations

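Known EBF targets of other tissues were mostly undetected. Of B-cell genes, Cd79a, Igll1, Vpreb1, Vpreb3 and Blk were at 0 in every library, while Pou2af1 was counted in 7 of 8 and reached 27.6 CPM in Medial and 36.6 CPM in datL replicate 2. Omp and Cnga2, of olfactory sensory neurons, were at 0 throughout. Gnal, the olfactory G protein subunit that striatal neurons also make, stood at 20.3, 14.1 and 126 CPM in medial-type and 35.3, 92.4 and 93.5 CPM in lateral-type libraries. Adcy3, an adenylyl cyclase of primary cilia, stood at 0, 0.0416 and 3.93 CPM in medial-type and 13.3, 21.2 and 3.91 CPM in lateral-type libraries. Of adipose genes, Adipoq and Ucp1 were at 0 in every library and Pparg had a single count.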
